A study of Mus musculus with 5 samples.

Results

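The effector cytokines of group 2 innate lymphoid cells (ILC2s) were followed as a set of 8 genes, chosen by name from the 47729 genes counted in dermal ILC2s (dILC2s): *Il5*, *Il13*, *Il4*, *Il9*, *Areg*, *Csf2*, *Il10* and *Il6*. RNA was sequenced from unstimulated dILC2s, freshly sorted from the skin of female C57BL/6 mice of 8 to 13 weeks, and the study gated such cells as CD45+ and CD90hi without CD2/CD3 signal. The 3 WT pools (5, 6 and 13) came from 30 mice, 10 per pool. The 2 *Rag1*-/- pools (2 and 7) held cells of 9 mice each by the study's methods, 18 in all, against 16 by the deposited labels. *Rag1*-/- mice cannot rearrange antigen receptor genes and so lack mature T and B cells in every tissue. The replicate was the pool, and the labels named the cells of the WT pools type 2 and those of the *Rag1*-/- pools type 3 innate lymphoid cells, whereas the protocol called both dILC2s.

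ILC2s are tissue lymphocytes without antigen receptors. They are activated by alarmins of the epithelium and stroma (IL-33, TSLP and IL-25) and by IL-2 family cytokines, and they answer by secreting cytokines within hours. IL-5 keeps eosinophils alive, IL-13 and IL-4 act on epithelium, fibroblasts, macrophages and B cells through receptors that share IL-4R alpha, and IL-9 sustains mast cells and ILC2s themselves. Amphiregulin (*Areg*) binds the epidermal growth factor receptor and takes part in tissue repair, GM-CSF (*Csf2*) acts on macrophages, dendritic cells and granulocytes, IL-10 dampens inflammation, and IL-6 is made by many cell types of the skin. *Il4*, *Il13*, *Il5* and *Csf2* lie in a cluster on chromosome 11, and GATA-3 is the transcription factor that keeps the type 2 cytokine genes open.

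The sequences just upstream of 4 of the genes are shown: *Il5*, *Il13* and *Areg*, the most abundant genes that were called higher in the *Rag1*-/- pools, and *Il6*, the one gene with a lower level in both, which was not called. That of *Csf2* is left out because its annotated starts differ. Each is the 250 bases before the transcription start, on the strand of the gene and 5′ to 3′, from RefSeq on GRCm38.p6 (chr11:53720544-53720793, plus strand, for *Il5*, chr11:53634703-53634952, minus strand, for *Il13*, chr5:91139349-91139598, plus strand, for *Areg*, and chr5:30012864-30013113, plus strand, for *Il6*). Capitals mark matches on either strand to a GATA motif (GATA with A or T before it and A or G after it), an AP-1 motif (TGANTCA) or a cAMP response element (CRE, TGACGTCA).
Il5: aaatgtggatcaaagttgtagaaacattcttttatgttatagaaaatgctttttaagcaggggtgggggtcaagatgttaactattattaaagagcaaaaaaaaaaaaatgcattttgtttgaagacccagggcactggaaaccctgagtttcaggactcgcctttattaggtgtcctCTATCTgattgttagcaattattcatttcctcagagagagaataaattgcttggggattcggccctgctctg
Il13: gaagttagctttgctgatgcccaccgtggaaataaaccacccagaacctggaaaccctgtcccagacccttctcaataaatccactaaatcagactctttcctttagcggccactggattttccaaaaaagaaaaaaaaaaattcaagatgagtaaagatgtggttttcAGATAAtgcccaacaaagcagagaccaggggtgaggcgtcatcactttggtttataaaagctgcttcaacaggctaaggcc
Areg: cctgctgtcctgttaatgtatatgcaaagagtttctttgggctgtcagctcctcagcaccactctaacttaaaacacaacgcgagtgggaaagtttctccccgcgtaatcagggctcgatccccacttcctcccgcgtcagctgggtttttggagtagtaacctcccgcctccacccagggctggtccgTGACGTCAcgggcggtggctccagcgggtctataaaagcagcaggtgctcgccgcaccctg
Il6: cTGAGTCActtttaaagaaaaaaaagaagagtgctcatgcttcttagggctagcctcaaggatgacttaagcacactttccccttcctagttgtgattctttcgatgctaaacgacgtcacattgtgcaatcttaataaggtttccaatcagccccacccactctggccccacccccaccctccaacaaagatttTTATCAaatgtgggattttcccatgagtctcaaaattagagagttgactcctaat

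RefSeq held a start for 7 of the 8 genes, all but *Il10*. The RefSeq start of *Csf2* lay 232 bases from the GENCODE start, that of *Il9* 11 bases and that of *Il4* 4 bases, and the others were identical. A GATA motif stood in 4 of the 7 upstream windows (*Il5*, *Il13*, *Csf2* and *Il6*), beside 26.5% of the 32851 windows of all RefSeq promoters. It began 72 bases before the start of *Il5* on the opposite strand, 81 bases before *Il13*, 247 before *Csf2* and, on the opposite strand, 55 before *Il6*. The AP-1 motif stood in 2 windows, those of *Il6* (249 bases before the start) and *Il9* (140), beside 6.75% of all windows, and the CRE in that of *Areg* alone (61 bases before the start), beside 1.55%. The letters GGAAA, the core bound by NFAT proteins, stood in all 7 windows, but also in 55.6% of all windows. These matches describe letters and show no binding.

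The libraries held between 32939428 and 39477243 counts in WT, and 8050562 (pool 2) and 38922750 (pool 7) in *Rag1*-/-. A fixed floor of 3 counts stood for 0.373 CPM (counts per 1000000 counts on genes) in *Rag1*-/- pool 2 and for 0.076 to 0.0911 CPM in the others. Intervals and limits cover counting error only. *Rag1* itself had 4, 0 and 5 counts in WT pools 5, 6 and 13, against 5 in pool 2 and 48 in pool 7 labelled *Rag1*-/- (log2 fold change 3.53, SE 1.03, adjusted p = 0.0865, edgeR). Its transcript was thus not lower in the libraries labelled as knockouts. The WT counts lay near the floor, however, so a lower level could not have been seen. The genotype in what follows is that of the labels. Summed over 41 genes of all leukocytes, the level was 1370 to 3320 CPM in WT, lowest in pool 5, and 9510 to 11000 CPM in *Rag1*-/-, and 27 of the 41 were called higher (median log2 fold change 1.93). *Ptprc*, which encodes the pan-leukocyte protein CD45, was at 122, 421 and 341 CPM in WT pools 5, 6 and 13 and at 1180 and 623 CPM in *Rag1*-/- pools 2 and 7. Over 12 keratinocyte genes the sum was 25600 to 37400 CPM in WT and 6480 to 14900 CPM in *Rag1*-/-, with 4 called lower. The share of sorted lymphocytes in a library and the RNA per cell cannot be told apart in these bulk samples, so each cytokine is given per library, per leukocyte message and per count of *Il13* of the same pool.

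Genotypes were compared with edgeR's quasi-likelihood test over the 19011 genes that passed its filter on low counts, with Benjamini-Hochberg adjustment, and a gene was called where the adjusted p was under 0.05 and the log2 fold change above 1 or below -1. Of the 8 cytokine genes 7 passed the filter (*Il9* did not), 4 were called higher in the *Rag1*-/- pools (*Csf2*, *Il5*, *Il13* and *Areg*) and none lower, beside 3.57% of all genes tested called higher and 2.16% called lower. The median log2 fold change of the 7 was 2.03, against 0.02 over all genes tested. A rise was also general among leukocyte genes. The median was 1.93 over 41 pan-leukocyte genes, with 27 called higher, and 1.83 over 20 ILC2 marker genes, with 5 called higher. In CPM, both *Rag1*-/- pools stood above every WT pool for 5 genes (the called 4 and *Il4*), below every WT pool for 1 (*Il6*), and overlapped WT for *Il9* and *Il10*, where 21.9% of all genes tested stood above and 24.0% below. An exact two-sided permutation test of a single gene, 3 pools against 2, has 10 assignments and cannot give a p below 0.2, so the calls rest on the spread shared across genes.

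*Il5* (chr11:53720794-53725106, plus strand, 4 exons) encodes the survival factor of eosinophils. Its level was 9.0, 31.9 and 20.5 CPM in WT pools 5, 6 and 13, from 349, 1261 and 674 counts, and 195 and 86.7 CPM in *Rag1*-/- pools 2 and 7, from 1567 and 3374 counts. Every *Rag1*-/- value was above every WT value, and *Rag1*-/- pool 2 was the highest. WT averaged 20.5 ± 11.5 CPM (SD, n = 3), *Rag1*-/- averaged 141 ± 76.3 CPM (SD, n = 2), and the log2 fold change was 2.79 (SE 0.54, adjusted p = 0.036, edgeR).

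*Il13* (chr11:53631324-53634702, minus strand, 4 exons) encodes the cytokine that acts on epithelium and fibroblasts. It was measured at 14.7, 39.5 and 37.4 CPM in the WT pools (571, 1559 and 1232 counts) and at 174 and 134 CPM in the *Rag1*-/- pools (1400 and 5233 counts). WT pool 5 was again the lowest, and the *Rag1*-/- pools lay closer to each other than for *Il5*. With means of 30.5 ± 13.7 CPM (SD, n = 3) and 154 ± 27.9 CPM (SD, n = 2), *Il13* rose by a log2 fold change of 2.36 (SE 0.41, adjusted p = 0.0309, edgeR).

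*Areg* (chr5:91139599-91148432, plus strand, 6 exons) had the highest level per length of the set in the *Rag1*-/- pools. The WT pools gave 33.4, 80.4 and 84 CPM and the *Rag1*-/- pools 281 and 248 CPM, from 1296 to 3174 and from 2262 and 9640 counts. The lower *Rag1*-/- pool thus exceeded the highest WT pool, and the *Rag1*-/- pair differed by 1.13-fold. The log2 fold change was 2.03 (SE 0.38, adjusted p = 0.0349, edgeR), with means of 65.9 ± 28.2 CPM (SD, n = 3) for WT against 264 ± 23.5 CPM (SD, n = 2).

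*Csf2* (chr11:54247271-54249667, minus strand, 4 exons), the gene of GM-CSF, had the largest fold change of the 7 genes tested. Its level was low in WT, at 1.88, 5.07 and 6.13 CPM (73, 200 and 202 counts), and stood at 56.1 and 24.2 CPM in the *Rag1*-/- pools (452 and 943 counts). Both *Rag1*-/- pools were above all WT pools, and pool 2 was 2.32 times pool 7. The log2 fold change was 3.22 (SE 0.54, adjusted p = 0.0307, edgeR) between means of 4.36 ± 2.21 CPM (SD, n = 3) and 40.2 ± 22.6 CPM (SD, n = 2).

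These 4 calls each needed both the 3 WT pools and *Rag1*-/- pool 2. Without WT pool 5, 6 or 13 or *Rag1*-/- pool 2 in turn, edgeR called no gene at all of between 18386 and 20168 tested (3521, 3735, 3874 and 5200 genes had an unadjusted p under 0.05, in that order), and the adjusted p ran from 0.0642 to 0.123 for *Il5*, from 0.0544 to 0.111 for *Il13*, from 0.0544 to 0.112 for *Areg* and from 0.0564 to 0.109 for *Csf2*. The log2 fold changes without these pools were 2.15 to 3.29, 2.03 to 2.6, 1.71 to 2.23 and 2.54 to 3.53 in the same order of genes. Without *Rag1*-/- pool 7 the same 4 cytokine genes were called higher, but pool 2 was then the lone *Rag1*-/- library and was assumed to vary like the WT pools, which says nothing of the spread between *Rag1*-/- pools. DESeq2 called 7.29% of 16428 genes higher and 7.65% lower and called the same 4 cytokine genes higher.

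**Figure D1:**
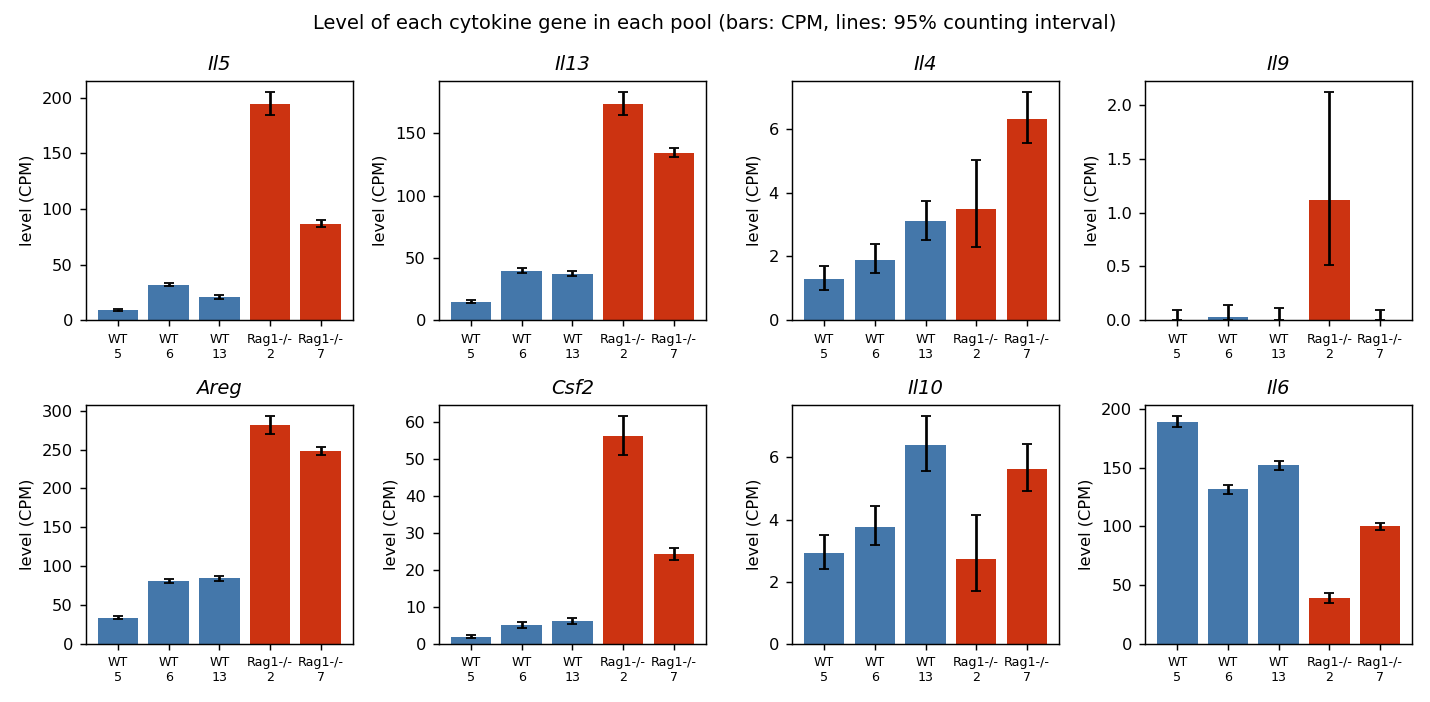
Level of each of the 8 cytokine genes in CPM (vertical axis, linear from 0) in the 3 WT pools (blue) and the 2 *Rag1*-/- pools (red), with exact 95% Poisson intervals of the counts as lines. Both red bars stand above all blue bars for *Il5*, *Il13*, *Areg*, *Csf2* and, by little, *Il4*, and below them for *Il6*.

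*Il4* (chr11:53602982-53618669, minus strand, up to 4 exons), the cytokine of B cell class switching to IgE, was a minor message in every pool. It reached 1.29, 1.9 and 3.1 CPM in WT (50, 75 and 102 counts) and 3.48 and 6.32 CPM in *Rag1*-/- (28 and 246 counts). The groups did not overlap, yet *Rag1*-/- pool 2 and WT pool 13 lay within each other's counting intervals. *Il4* was not called (log2 fold change 1.29, SE 0.49, adjusted p = 0.152, edgeR).

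*Il9* (chr13:56479277-56482246, minus strand, 5 exons) was at the limit of detection. It had 0, 1 and 0 counts in the WT pools and 9 and 0 counts in the *Rag1*-/- pools, so that pool 2, the shallowest library, was the single library with more than 1 count. A count of 0 allows up to 0.0773 CPM in WT pool 5, 0.0911 CPM in WT pool 13 and 0.0771 CPM in *Rag1*-/- pool 7, against 1.12 CPM measured in pool 2. The filter left *Il9* out, and without the filter its adjusted p was 0.103 (edgeR).

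*Il10* (chr1:131019845-131024974, plus strand, 5 exons) was low and overlapped between the groups. The WT pools gave 2.91, 3.77 and 6.41 CPM and the *Rag1*-/- pools 2.73 and 5.63 CPM, from 113, 149 and 211 and from 22 and 219 counts. The lowest value was in a *Rag1*-/- pool and the highest in a WT pool. The log2 fold change was 0.02 with an SE of 0.48 (adjusted p = 0.989, edgeR), and its sign depended on the scaling.

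*Il6* (chr5:30013114-30019981, plus strand, up to 5 exons) was lower, not higher, in the *Rag1*-/- pools. Its level was 189, 132 and 152 CPM in WT pools 5, 6 and 13 (7346, 5194 and 5010 counts) and 38.9 and 100 CPM in *Rag1*-/- pools 2 and 7 (313 and 3893 counts). Both *Rag1*-/- pools were below every WT pool, and WT pool 5, the lowest for *Il5*, *Il13*, *Areg* and *Csf2*, was the highest here. The fold change did not pass with edgeR (log2 -1.13, SE 0.41, adjusted p = 0.139), with means of 158 ± 29.3 CPM (SD, n = 3) and 69.4 ± 43.2 CPM (SD, n = 2). It passed with DESeq2 (-1.16, adjusted p = 0.0373) and with every counted gene kept (-1.17, adjusted p = 0.00996, edgeR), and not when WT pool 5, 6 or 13 or *Rag1*-/- pool 2 was left out (adjusted p from 0.203 to 0.302, edgeR), where the log2 fold change ran from -1.24 to -0.58, the latter without *Rag1*-/- pool 2. Without *Rag1*-/- pool 7 it was -2.08 (adjusted p = 0.0149), a fit in which pool 2 is the lone *Rag1*-/- library, assumed to vary like the WT pools. Keratinocyte marker sums (25600 to 37400 CPM in WT, 6480 to 14900 CPM in *Rag1*-/-) moved in the same direction as *Il6*, fibroblast sums over 8 genes (8000 to 14100 and 8500 to 8940 CPM) and macrophage and dendritic cell sums over 10 genes (664 to 1680 and 829 to 1520 CPM) overlapped, and their part in the result was not tested.

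Levels were compared between genes as CPM per kilobase of transcript. The order is that of messages in bulk libraries, which also held keratinocyte and fibroblast messages. In the WT pools it was *Il6* (138 ± 25.7 CPM per kb, SD, n = 3), *Areg* (54.3 ± 23.2), *Il13* (25.3 ± 11.4), *Il5* (13.3 ± 7.46), *Csf2* (5.45 ± 2.76), *Il4* (3.87 ± 1.7), *Il10* (3.33 ± 1.39) and *Il9* (0.0158 ± 0.0273). The ranges of neighbours in this order were apart between *Il6* and *Areg* and between *Il10* and *Il9* alone. In the *Rag1*-/- pools *Areg* came first (218 ± 19.4 CPM per kb, SD, n = 2), before *Il13* (128 ± 23.2), *Il5* (91.5 ± 49.7), *Il6* (60.9 ± 37.9), *Csf2* (50.2 ± 28.2), *Il4* (9.06 ± 3.71), *Il10* (3.19 ± 1.56) and *Il9* (1.04 ± 1.47). There, ranges overlapped between *Il13* and *Il5*, between *Il5* and *Il6* and between *Il6* and *Csf2*. *Il10* and *Il9* met at 2.09 CPM per kb in pool 2, from 22 and 9 counts, and the other neighbours were apart.

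The mix of cytokine messages was not alike in the groups. *Il6* made up 76.0%, 46.5% and 50.3% of the summed level per kilobase of the 8 genes in WT pools 5, 6 and 13 and 5.52% and 17.3% in *Rag1*-/- pools 2 and 7. *Areg* made up 12.6%, 26.7% and 26.1% in WT and 37.5% and 40.3% in *Rag1*-/-, and *Il13* 5.59%, 13.2% and 11.7% against 23.4% and 22.1%. The share of *Il5* was 2.68%, 8.39% and 5.02% in WT and 20.5% and 11.2% in *Rag1*-/-, and that of *Csf2* 1.08%, 2.56% and 2.89% against 11.4% and 5.99%. None of these shares overlapped between the groups. Shares of 1 whole are tied to each other, so a smaller share of *Il6* leaves larger shares for the rest.

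**Figure D2:**
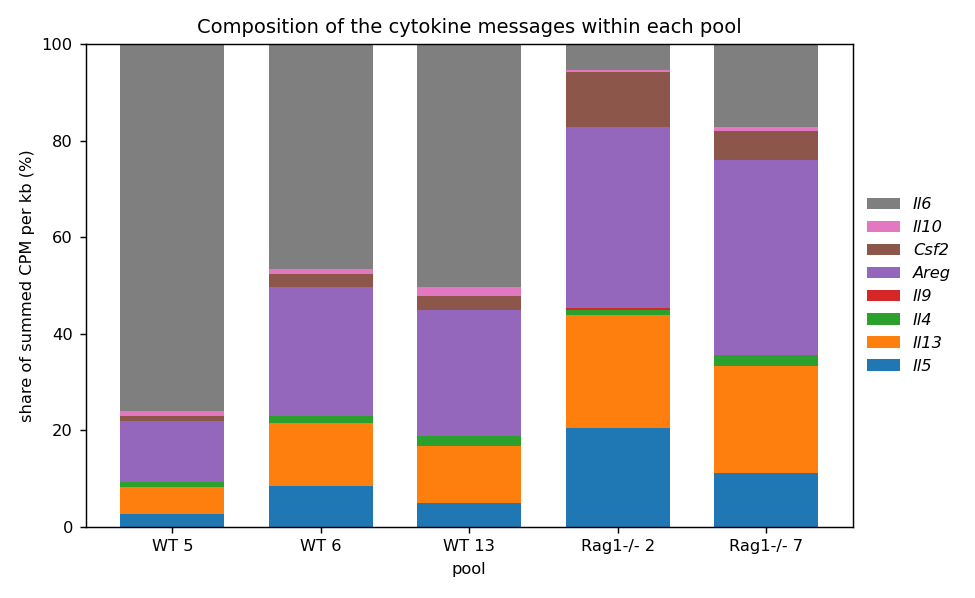
Share of each cytokine gene in the summed CPM per kilobase of the 8 genes (vertical axis, %) in each pool (horizontal axis), 1 stacked bar a pool. *Il6* (grey, top) takes 46.5% to 76.0% of the WT bars and 5.52% and 17.3% of the *Rag1*-/- bars, where *Areg* (purple) is the largest part.

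Ratios of counts within a pool need no scaling between libraries. Each gene was set against *Il13*, and *Il5* against *Areg*, which gave 7 ratios with enough counts. Over all 19010 other genes tested, the ratio to *Il13* was above every WT pool in both *Rag1*-/- pools for 0.263% and below every WT pool for 90.9%, as *Il13* itself was among the genes called higher. Against that background 1 of the 6 ratios to *Il13* was higher without overlap and 4 were lower.

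*Csf2* was the one gene whose ratio to *Il13* was higher in both *Rag1*-/- pools than in any WT pool. There were 0.128, 0.128 and 0.164 counts of *Csf2* per count of *Il13* in the WT pools and 0.323 and 0.18 in the *Rag1*-/- pools, a 1.73-fold difference of the geometric means. The counting intervals of *Rag1*-/- pool 7 (0.168 to 0.193) and WT pool 13 (0.141 to 0.19) overlapped. *Il5* per *Il13* was 0.611, 0.809 and 0.547 in WT and 1.12 and 0.645 in *Rag1*-/-, so that *Rag1*-/- pool 7 fell among the WT pools and pool 2 stood above them. *Il5* per *Areg* overlapped likewise, at 0.269, 0.397 and 0.244 against 0.693 and 0.35.

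The ratio of *Areg* to *Il13* varied least. *Areg* per *Il13* was 2.27, 2.04 and 2.25 in WT and 1.62 and 1.84 in *Rag1*-/-, lower by 0.338 on the log2 scale without overlap. *Il4* per *Il13* was 0.0876, 0.0481 and 0.0828 in WT and 0.02 and 0.047 in *Rag1*-/-, where pool 7 was just below WT pool 6. *Il10* per *Il13* was 0.198, 0.0956 and 0.171 against 0.0157 and 0.0418, and *Il6* per *Il13* was 12.9, 3.33 and 4.07 against 0.224 and 0.744, a 13.7-fold difference of the geometric means. The exact permutation p was 0.2 for the 5 ratios without overlap, the smallest it can give (adjusted 0.28 over the 7 ratios), and 0.4 for *Il5* per *Il13* and *Il5* per *Areg*. In place of a ratio, *Il9* had 9 counts beside 1400 of *Il13* in *Rag1*-/- pool 2.

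**Figure D3:**
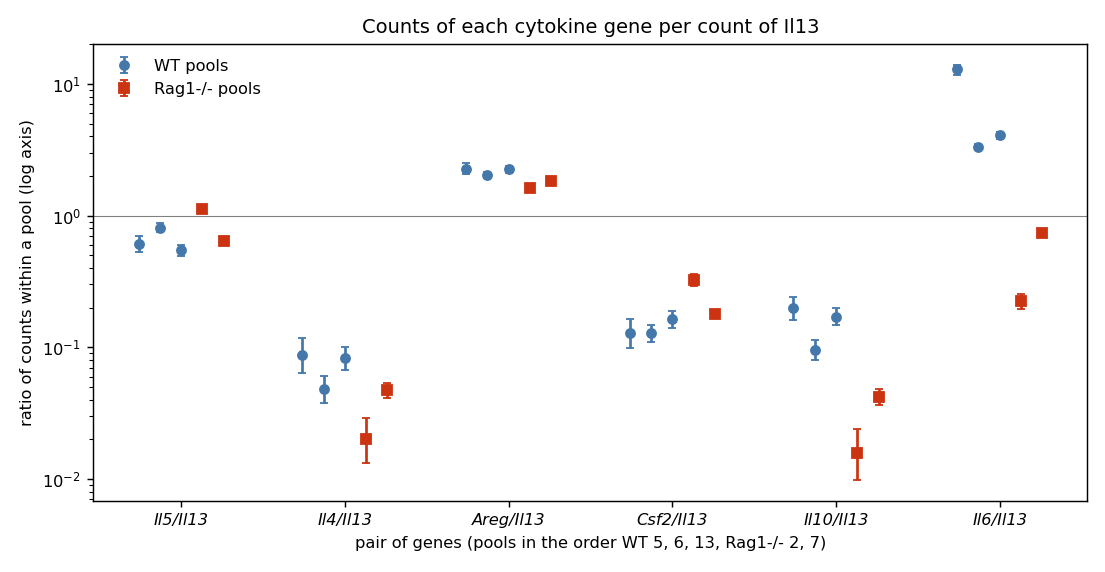
Counts of 6 cytokine genes per count of *Il13* within each pool (vertical axis, log scale), with the 3 WT pools as blue circles, the 2 *Rag1*-/- pools as red squares and exact 95% binomial intervals as lines. *Il6* per *Il13* lies at 3.33 to 12.9 in WT and at 0.224 and 0.744 in *Rag1*-/-, and *Csf2* per *Il13* is the ratio whose red squares both lie above the blue circles.

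The cytokine counts were also set against the summed counts of the pan-leukocyte and the ILC2 marker genes. Whether all counts of these genes came from the sorted cells was not tested. Per 1000 counts of the pan-leukocyte genes, *Areg* gave 24.2 to 25.8 counts in WT and 25.5 and 26.0 in *Rag1*-/-, a span that overlapped. *Il13* gave 10.8 to 11.9 against 14.1 to 15.8 and *Csf2* 1.37 to 1.89 against 2.55 to 5.1, both without overlap, and *Il5* 6.29 to 9.61 against 9.12 to 17.7, with overlap. *Il10* (1.14 to 2.13 against 0.248 to 0.592) and *Il6* (39.6 to 138 against 3.53 to 10.5) were lower, and *Il4* and *Il9* overlapped. Thus 2 of the cytokine genes were above and 2 below WT, where 0.668% of all genes tested were above and 86.7% below.

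Per 1000 counts of 20 ILC2 marker genes (summed at 1680 to 3070 CPM in WT and 5720 to 7580 CPM in *Rag1*-/-), 4 cytokine genes were above WT in both *Rag1*-/- pools, beside 2.15% of all genes tested. They were *Il5* (5.34 to 10.4 in WT, 15.2 to 25.7 in *Rag1*-/-), *Il13* (8.74 to 14.0 and 22.9 to 23.5), *Areg* (19.8 to 31.3 and 37.1 to 43.3) and *Csf2* (1.12 to 2.29 and 4.24 to 7.41). *Il10* (1.23 to 2.39 and 0.36 to 0.984) and *Il6* (42.9 to 112 and 5.13 to 17.5) were below, as were 77.8% of all genes tested. Log2 fold changes within the marker list ran from 0.15 to 3.32, and *Rora* alone held 639 of its 1680 CPM in WT pool 5.

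When edgeR scaled the libraries on these lists, no cytokine gene was called higher. On the pan-leukocyte scale the median log2 fold change of all genes moved to -2.22, with 71.9% of the genes called lower and 0.0842% higher. There *Csf2* stood at 1.23 (SE 0.73, adjusted p = 0.114), *Il5* at 0.81 (0.68, 0.265), *Il13* at 0.36 (0.69, 0.626) and *Areg* at 0.02 (0.69, 0.979), while *Il10* (-2.07, adjusted p = 0.0259) and *Il6* (-3.45, adjusted p = 0.00037) were called lower. Relative to the shifted median, *Csf2* was 3.45 higher, *Il5* 3.02, *Il13* 2.58 and *Areg* 2.24, *Il10* differed by 0.15, and *Il6* was at -1.23. On the ILC2 marker scale the median was -2.09, with 47.5% of genes called lower and 0.0736% higher, and *Il6* was the one cytokine gene called (-3.29, adjusted p = 0.00635). *Il4* changed sign on both scales, at -0.77 and -0.59.

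**Figure D4:**
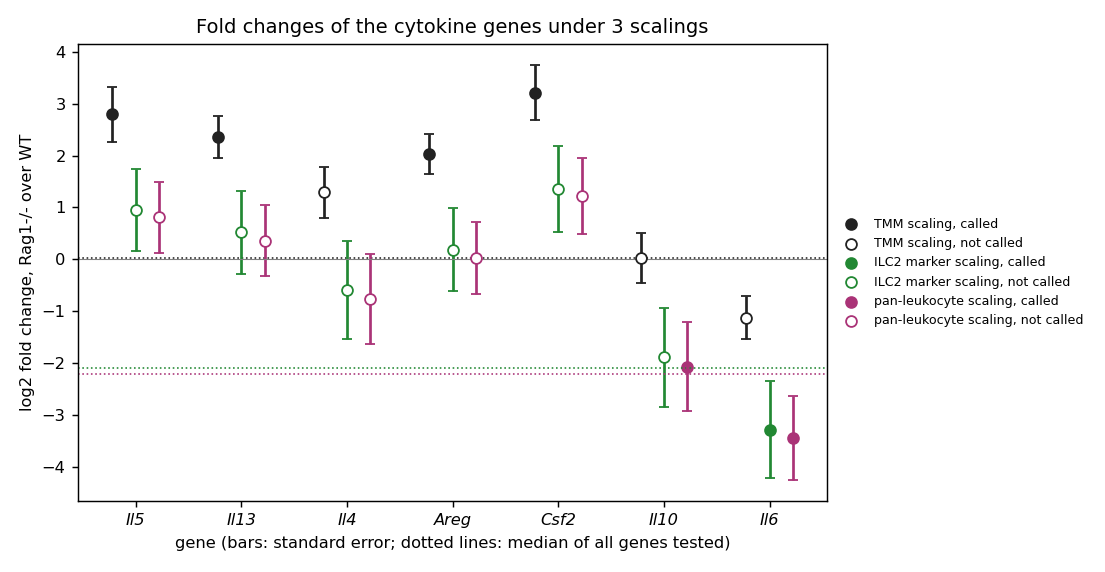
Log2 fold changes of *Rag1*-/- over WT (vertical axis, bars are standard errors) of the 7 cytokine genes tested with edgeR, under TMM scaling (black), ILC2 marker scaling (green) and pan-leukocyte scaling (purple). Filled circles were called, open circles were not, and dotted lines give the median of all genes under each scaling. *Csf2*, *Il5*, *Il13* and *Areg* are called under TMM alone and lie above the dotted line of each scaling, and *Il6* lies below it.

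The cluster on chromosome 11 holds *Il4*, *Il13*, *Il5* and *Csf2* within 647 kb. *Il13* lies 12.7 kb from *Il4* with no gene between them, *Il5* a further 86.1 kb on, beyond *Rad50*, a DNA repair gene whose body holds the control region of the locus, and *Csf2* another 522 kb on. Of the 11 other genes tested in this stretch none was called higher and 1 lower, with a median log2 fold change of -0.314. That gene was *Slc22a4*, a carnitine and ergothioneine transporter, at 73.6, 69.4 and 51.9 CPM in WT and 14.8 and 22.8 CPM in *Rag1*-/- (log2 -1.74, SE 0.29, adjusted p = 0.0307, edgeR). *Rad50*, between *Il13* and *Il5*, was at 26.9, 37.6 and 33.1 CPM against 78.0 and 29.6 CPM, so that the groups overlapped (log2 0.73, adjusted p = 0.27). The kit did not mark strand, and *Gm12214* overlaps *Il5* and *Gm12223* overlaps *Csf2*, with no count and with 2, 2, 0, 3 and 12 counts in the 5 libraries.

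**Figure D5:**
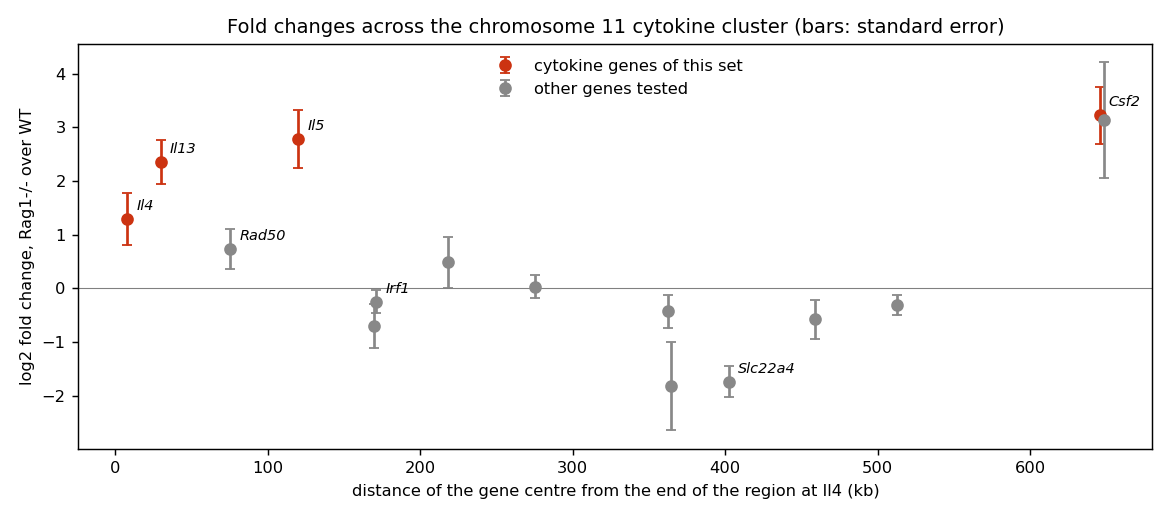
Log2 fold change of *Rag1*-/- over WT (vertical axis, bars are standard errors) of the 15 genes tested between *Il4* and *Csf2* by the distance of their centre from the *Il4* end of the region (horizontal axis, kb). Under TMM scaling the 4 cytokine genes (red) lie at 1.29 to 3.22 and the genes between them (grey) mostly near or below 0, apart from the overlapping *Gm12223* at the *Csf2* end.

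Of 14 receptor genes for these cytokines 13 were tested, 2 were called higher and 2 lower (median log2 fold change -0.0959). *Il2rg*, the common gamma chain of the IL-2, IL-4, IL-7 and IL-9 receptors, was at 36.7, 105 and 93.2 CPM in WT and 394 and 321 CPM in *Rag1*-/- (log2 2.21, adjusted p = 0.0357, edgeR). *Il4ra*, the chain through which IL-4 and IL-13 signal, rose from 236, 356 and 286 CPM to 605 and 709 CPM (1.20, adjusted p = 0.0401). *Il13ra1*, its partner for IL-13 on non-lymphoid cells, fell from 309, 281 and 288 CPM to 91.0 and 139 CPM (-1.31, adjusted p = 0.0368), and *Egfr*, the amphiregulin receptor, from 242, 229 and 160 CPM to 97.6 and 68.2 CPM (-1.32, adjusted p = 0.0395). Keratinocyte marker sums (25600 to 37400 CPM in WT, 6480 to 14900 CPM in *Rag1*-/-) moved in the same direction as *Il13ra1* and *Egfr*, and their part was not tested. *Il5ra* did not pass the filter. No list gene kept its call without WT pool 5, 6 or 13 or without *Rag1*-/- pool 2. Under pan-leukocyte scaling, where 71.9% of all genes were called lower, the numbers called higher and lower became 0 and 8 for the receptors, 0 and 8 for the transcriptional regulators, 0 and 6 for the mRNA decay regulators, 0 and 7 for the induced genes and 1 and 12 for the family ligands. They were 0 and 3 for T cell genes, 0 and 1 for ILC2 markers, 3 and 1 for ILC3 genes and 2 and 0 for genes of NK cells and ILC1s.

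Among 22 transcriptional regulators of type 2 cytokine genes 5 were called higher and none lower, with a median log2 fold change of 0.916. *Tcf7*, the gene of TCF-1, which acts early in ILC2 development, was at 47.0, 101 and 76.4 CPM in WT and 373 and 287 CPM in *Rag1*-/- (2.17, adjusted p = 0.0306, edgeR). *Rara*, a retinoic acid receptor (1.66, adjusted p = 0.0309), *Nfil3*, needed by the ILC lineage (1.09, adjusted p = 0.0332), and *Batf*, an AP-1 family member (1.63, adjusted p = 0.0353), rose as well. *Gata3*, singled out after its values were seen because it is the defining regulator, was at 199, 319 and 229 CPM in WT and 558 and 369 CPM in *Rag1*-/- and was not called (0.92, adjusted p = 0.0998).

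Of 7 regulators of cytokine mRNA decay 1 was called higher, *Zc3h12d*, at 1.86, 4.66 and 3.4 CPM in WT and 17.0 and 11.9 CPM in *Rag1*-/- (2.15, adjusted p = 0.0368, edgeR). The median of the list was 0.0795. Of 14 genes that IL-4, IL-13 or the IL-2 family induce 4 were called higher and none lower (median 0.633). *Socs1*, *Cish* and *Socs2*, feedback inhibitors of cytokine receptors, had log2 fold changes of 1.74 (adjusted p = 0.0306), 1.25 (0.036) and 1.13 (0.0368). *Arg1*, the arginase of ILC2s and alternatively activated macrophages, rose by 2.41 (adjusted p = 0.0429, all edgeR).

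Among 21 ligands of the same cytokine families 2 were called higher and 2 lower (median -0.112). *Il22* was at 0.593, 0.0253 and 0.486 CPM in WT and 23.4 and 6.73 CPM in *Rag1*-/- (5.35, adjusted p = 0.0309, edgeR). *Osm*, an IL-6 family cytokine, was at 2.78, 10 and 8.35 CPM against 31.9 and 31.0 CPM (2.19, adjusted p = 0.047), the opposite direction to *Il6*. *Il33*, the alarmin that activates ILC2s, fell from 155, 151 and 157 CPM to 48.1 and 67.5 CPM (-1.38, adjusted p = 0.0306). *Tgfa*, a ligand of the same receptor as amphiregulin, fell from 59.2, 57.1 and 54.7 CPM to 13.8 and 27.1 CPM (-1.42, adjusted p = 0.0464). The keratinocyte marker sums moved in the same direction as *Il33* and *Tgfa*, and their part was not tested.

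Among all 7 ligands of the epidermal growth factor receptor (*Areg*, *Ereg*, *Hbegf*, *Tgfa*, *Btc*, *Epgn* and *Egf*), *Areg* made up 11.7%, 28.2% and 26.1% of the summed CPM per kilobase in WT pools 5, 6 and 13 and 77.7% and 63.0% in *Rag1*-/- pools 2 and 7. *Hbegf*, made by keratinocytes among others, was the largest part in each WT pool, at 34.8%, 32.1% and 27.2%, and stood at 9.85% and 21.0% in *Rag1*-/-. This family was set together after the values of *Areg* were seen.

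Markers of other cells that make these cytokines were followed as lists. Of 12 mast cell genes none was called higher and 1 lower (median -0.771). They summed to 241 to 355 CPM in WT and 480 to 635 CPM in *Rag1*-/-, and without *Kit*, which ILC2s may also carry, to 176 to 202 CPM and 101 to 144 CPM. Their defining genes were *Cpa3* at 23.5, 29.8 and 33.8 CPM against 10.2 and 21.2 CPM, *Cma1* at 14.7, 17.2 and 18.2 CPM against 6.09 and 20.7 CPM and *Mcpt4* at 35.7, 38.8 and 43.2 CPM against 13 and 32.4 CPM. The basophil gene *Mcpt8* had no count in WT and 0.124 and 0.103 CPM in *Rag1*-/-, and *Prss34* was at 0 in 4 of 5 libraries. The 4 basophil genes summed to 8.41 to 12.7 CPM in WT and 2.86 to 5.04 CPM in *Rag1*-/-, mostly from *Cyp11a1* (11.7, 7.42 and 7.29 CPM against 2.48 and 4.34 CPM, log2 -1.29, not called, and named after its values were seen). Eosinophil genes summed to 0.182 to 0.507 CPM and 0.745 to 0.822 CPM, with *Ear1* at 0 in every library.

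Genes of T cells, which the gate is meant to leave out by their CD2/CD3 signal, summed to 59.5 to 121 CPM in WT and 306 to 361 CPM in *Rag1*-/-, with 3 of 9 called higher. *Cd3g*, *Trbc2* and *Trac* were the called genes (2.23, 2.43 and 2.11, adjusted p = 0.0306, 0.0306 and 0.0349, edgeR), whereas *Cd3e* was at 5.46, 7.98 and 7.1 CPM against 9.44 and 7.42 CPM. The largest part of the sum in *Rag1*-/-, *Trbc1*, was at 9.82, 47.7 and 38.2 CPM against 154 and 126 CPM and was not called. *Cd4* was higher in both *Rag1*-/- pools and not called, and *Cd3d* and *Trdc* overlapped WT, as did *Cd3e*. *Cd5*, the 1 tested gene with a negative log2 fold change, was at 3.58, 2.61 and 2.0 CPM against 1.37 and 0.668 CPM. Among 6 genes of type 3 innate lymphoid cells, the label of the *Rag1*-/- libraries, 3 were called higher and 1 lower, and the summed level was 143 to 175 CPM against 104 to 166 CPM. *Il17f* was at 1.01, 0.633 and 0.516 CPM in WT and 39.4 and 14.9 CPM in *Rag1*-/- (5.23, adjusted p = 0.0306, edgeR), and *Il23r* at 1.16, 1.29 and 1.4 CPM and 17.0 and 12.2 CPM (3.53, adjusted p = 0.0306). *Ahr*, which also acts outside these cells, was the gene called lower, at 172, 166 and 140 CPM against 69.7 and 68.0 CPM (-1.18, adjusted p = 0.0306, edgeR). It made up most of the ILC3 sum in WT. *Il22*, also called higher, was at 0.593, 0.0253 and 0.486 CPM against 23.4 and 6.73 CPM. Not called were *Il17a*, at 0.129, 0.583 and 0.395 CPM against 15.4 and 1.18 CPM, and *Ncr1*. The latter was at 0.155, 0.431 and 0.0911 CPM against 0.994 and 0.899 CPM. Genes of NK cells and ILC1s summed to 2.13 to 4.13 CPM against 21.8 to 28.2 CPM, with 3 of 7 called higher. All 20 ILC2 marker genes had a positive log2 fold change under TMM scaling (median 1.83) and 5 were called, among them *Thy1*, which encodes the gated protein CD90. *Rora* was at 639, 1170 and 957 CPM in WT and 2310 and 1190 CPM in *Rag1*-/-, *Il1rl1*, the IL-33 receptor, at 8.17, 52.1 and 31.8 CPM against 161 and 40.4 CPM, and *Klrg1* at 0.129, 1.19 and 1.03 CPM against 11.9 and 3.93 CPM. The summed levels of T cell, NK cell and ILC2 genes were higher in both *Rag1*-/- pools, as were *Il5*, *Il13*, *Areg* and *Csf2*. So were *Il17a*, *Il17f*, *Il22*, *Il23r* and *Ncr1*, the listed ILC3 genes other than *Ahr*, while the ILC3 sum, in WT mostly *Ahr*, overlapped. The part of these genes in the cytokine results was not tested.

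Genes with the profile most like a cytokine were sought by the Euclidean distance of log2 CPM, centred over the 5 libraries, among all genes tested. Nearest to *Il13* were *Itgae* (distance 0.058), the gene of the integrin CD103, *Il2rg* (0.175) and *Rab26* (0.182). *Itgae* ran at 82.4, 221 and 208 CPM in WT and 957 and 780 CPM in *Rag1*-/-. Nearest to *Areg* were the leukocyte genes *Laptm5* (0.097), *Cd84* (0.153) and *Arhgap9* (0.156), with *Laptm5* at 110, 244 and 260 CPM against 903 and 797 CPM. Nearest to *Il5* were *Amph* (0.21), *Hist2h2bb* (0.288) and *Vmn2r84* (0.354), the last with at most 15 counts in a library. With 5 libraries and a shared difference between groups, such a list is a description.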

How the data were processed

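Poly(A) RNA of sorted dILC2s was sequenced in single reads of 50 bases without strand. The submitters' processing notes name STAR 2.5, featureCounts 1.5.0-p1 and DESeq2 1.8.2, and both GRCm38 and GRCm39. The authors deposited raw counts per gene (unnormalized) with gene positions, which were those of GRCm38 for all 8 genes, and a transcript length per gene, used for CPM per kilobase. The normalized table deposited beside them was not used.

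Libraries were grouped by their labels. Counts were filtered (filterByExpr), scaled (TMM) and compared with edgeR 4.0.16 in R 4.3.3 (quasi-likelihood test, Benjamini-Hochberg over all genes tested). SE is the log2 fold change over the square root of F. CPM is the count per 1000000 counts on genes. Intervals are exact (95%, Poisson for CPM, Clopper-Pearson for ratios). Ratios were tested by exact permutation. The test was checked on simulated counts. Total counts ranged from 8050562 to 39477243.

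The members and lists were chosen with earlier results of these data known. The genes named are the 8 members, at most 4 called genes of smallest adjusted p per list and direction, the first markers of other cells, the 3 genes nearest to *Il5*, *Il13* and *Areg*, *Rag1* and *Ptprc*. Alternatives were DESeq2 1.42.0, other scalings, filters, a robust fit, the adjusted p alone, 0.5 counts added to ratios and each library left out. Nothing says whether pools were prepared apart in time. 1 marker gene is not reported here.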

Additional observations from a re-analysis of the deposited data

How the results depend on the processing

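With 3 pools against 2, leaving out 1 pool removed most calls. The number of cytokine genes called was 4, and 0 to 5 when each pool was left out (0 without any of WT pools 5, 6 and 13 or *Rag1*-/- pool 2, where 4 or 5 still had an unadjusted p under 0.05, and 5 without *Rag1*-/- pool 7, the remaining *Rag1*-/- pool being assumed in both such fits to vary like the WT pools). It was 2 under pan-leukocyte scaling and 1 under ILC2 marker scaling, all lower in *Rag1*-/-, on scales that shifted the median of all genes to -2.22 and -2.09. All genes called numbered 1090, against 2453 with DESeq2, 13682 under pan-leukocyte scaling, 9040 under ILC2 marker scaling, 2645 without the filter and 0 to 2409 when each pool was left out. *Il4* reversed under pan-leukocyte (-0.77) and ILC2 marker scaling (-0.59). *Il10*, near 0, reversed with DESeq2 (-0.01), RLE scaling (-0.01), library size alone (-0.03), no filter (-0.03), a minimum of 10 counts per library (-0.01), pan-leukocyte (-2.07) and ILC2 marker scaling (-1.9), and ranged from -0.73 to 0.44 when each pool was left out, as *Il6* did from -2.08 to -0.58. On the log2 scale the ratios ranged, when each pool was left out, from -0.00435 to 0.791 for *Il5* per *Il13*, the reversal being without *Rag1*-/- pool 2, from -1.82 to -0.582 for *Il4*, -0.433 to -0.244 for *Areg*, 0.374 to 1.22 for *Csf2*, -3.24 to -1.82 for *Il10* and -4.64 to -2.91 for *Il6* per *Il13*, and from 0.239 to 1.22 for *Il5* per *Areg*. Other causes of these changes were not tested. No paired analysis was possible because the groups share no replicate numbers.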
